A study of Mus musculus with 6 samples.

Results

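The eotaxins and T helper 2 (Th2) chemokines with their receptors were followed here as 8 genes chosen by name, of the 19752 genes that could be named on the array. They are 5 ligands (Ccl11, Ccl24, Ccl8, Ccl17 and Ccl22) and 3 receptors (Ccr3, Ccr4 and Ccr8), read by 9 probes, since Ccr8 has a second probe. The probe used for each member was well above background on all 6 arrays, so no member was lost to a filter on dim probes.

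Chemokines are small secreted proteins that guide leukocytes along a gradient by binding G protein-coupled receptors on their surface. The eotaxins Ccl11 and Ccl24 attract eosinophils through Ccr3. Ccl17 and Ccl22 share the receptor Ccr4, found on Th2 and regulatory T cells, while mouse Ccl8 is a ligand of Ccr8, another receptor of Th2 cells. In the airways these ligands are made by epithelial cells, fibroblasts, macrophages and dendritic cells, several of them under the control of interleukin-4 (IL-4) and IL-13 acting through the transcription factor STAT6.

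The study asked what histamine-releasing factor (HRF), a secreted protein that can bind IgE, does in the lung, and whether Fc receptors are needed for it. All mice were labelled C57BL/6. The 6 groups were FcRg-/- mice given mouse HRF, FcRg-/- mice given PBS, FceRIa-/- mice given mouse HRF, FceRIa-/- mice given PBS, wild type (WT) mice given mouse HRF and WT mice given PBS, with challenge through the nose. Total RNA of homogenised whole lung was labelled with Cy3 and read on 1 array per group. Age, sex, dose, time after challenge and the number of mice behind each RNA are not given in the sources used here.

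All 6 arrays lie on 1 slide. Levels are given as log2 of the processed signal relative to the array's own 75th percentile, so that 0 marks that percentile, and a level is never compared between genes. The 75th percentile of the signal lay between 1197 and 1622, 67.5% to 79.6% of 59305 spots per array were well above background, and none was saturated. The lung epithelial markers were in place: their mean level over 9 genes lay between 5.46 and 5.72 on all 6 arrays. The targeted genes went against the labels. Fcer1g, which encodes the FcRg chain, stood at 4.32 and 4.14 on the HRF and PBS arrays labelled FcRg KO, against 4.61 and 3.93 on the WT arrays. Fcer1a, which encodes the IgE-binding chain, stood at -1.16 and -0.90 on the arrays labelled FceRIa KO, against -4.19 and -4.48 on the WT arrays. Where these probes lie relative to the deleted parts of the genes is not given in the sources used here. The groups are therefore called by their labels. The arrays labelled FcRg KO also stood apart in B cell genes: Cd79a, a chain of the B cell receptor, was at -5.57 and -5.35 there, against -1.53 and -2.18 on the arrays labelled FceRIa KO and -1.87 and -2.04 on the WT arrays. Its part in the member values was not tested.

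The promoters of 6 of the 8 members were found in the RefSeq table of assembly GRCm38.p6. Those of Ccl17, Ccl22, Ccr3 and Ccr4 are shown, because the first pair had the most similar profiles of all member pairs and the other pair are the receptors that were at least 2-fold higher in WT after HRF. Each is the 250 bases before the annotated start, read 5′ to 3′ on the gene's own strand. Capitals mark matches to 6 motifs searched on both strands, among them NF-kB, STAT6 (TTC and GAA with 4 bases between them) and STAT (TTCNNNGAA). For AP-1 the letters searched were TGANTCA. Those for GATA were AGATAA. Those for TATA were TATAAA.

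The Ccl17 promoter lies at chr8:94810203-94810452 on the plus strand.
Ccl17: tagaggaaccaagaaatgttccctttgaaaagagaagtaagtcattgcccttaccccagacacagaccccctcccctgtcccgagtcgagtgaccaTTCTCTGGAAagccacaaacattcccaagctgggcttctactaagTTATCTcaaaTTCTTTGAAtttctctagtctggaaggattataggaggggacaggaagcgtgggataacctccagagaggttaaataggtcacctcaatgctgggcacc

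The Ccl22 promoter lies at chr8:94745434-94745683 on the plus strand.
Ccl22: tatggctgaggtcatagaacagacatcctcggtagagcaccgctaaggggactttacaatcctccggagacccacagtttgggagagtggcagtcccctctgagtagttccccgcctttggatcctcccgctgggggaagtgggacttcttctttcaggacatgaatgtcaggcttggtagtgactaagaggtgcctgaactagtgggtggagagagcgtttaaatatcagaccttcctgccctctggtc

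The Ccr3 promoter lies at chr9:124021721-124021970 on the plus strand.
Ccr3: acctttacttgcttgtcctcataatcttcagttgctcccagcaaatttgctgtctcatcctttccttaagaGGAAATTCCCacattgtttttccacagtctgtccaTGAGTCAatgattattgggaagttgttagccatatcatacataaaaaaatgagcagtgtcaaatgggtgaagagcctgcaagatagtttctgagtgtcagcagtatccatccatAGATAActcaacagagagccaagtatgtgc

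The Ccr4 promoter lies at chr9:114496545-114496794 on the minus strand.
Ccr4: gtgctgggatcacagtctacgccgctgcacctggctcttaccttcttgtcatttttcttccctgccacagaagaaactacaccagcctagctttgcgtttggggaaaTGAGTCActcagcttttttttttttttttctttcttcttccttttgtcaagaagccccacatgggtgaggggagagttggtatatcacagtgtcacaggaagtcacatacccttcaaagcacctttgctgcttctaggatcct

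In the Ccl17 window the STAT6 letters matched from -154 to -145 and the STAT letters from -99 to -91, counted back from the start, and the GATA letters matched in reverse from -109 to -104. The Ccl22 window held none of the 6 motifs. Ccr3 held NF-kB letters from -179 to -170, AP-1 letters from -144 to -138 and GATA letters from -30 to -25. Ccr4 held AP-1 letters from -143 to -137, 1 base nearer to the start than in Ccr3. No matches overlapped. Of the other windows searched, Ccl8 held the TATA letters and Ccr8 the GATA letters. Among 27025 genes with a promoter in the table, 5.86% held the STAT6 letters, 7.18% the STAT letters, 3.75% NF-kB, 6.87% AP-1, 10.3% GATA and 13.0% TATA. A match is a description of these letters, not a binding site.

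On the arrays labelled FcRg KO, 1 of the 8 members, the eotaxin Ccl24, was at least 2-fold higher after HRF than after PBS, set against 0.765% of the 16593 genes compared in that pair. On the arrays labelled FceRIa KO, 4 of 8 passed 2-fold, against a background of 1.48% of 16315 genes. With normexp background correction and quantile normalization 2 of 8 did so, because Ccl11 (a log2 ratio of 0.90) and Ccl22 (0.62) fell short of it. In WT lung 7 of 8 did, against 2.32% of 17432 genes. No member was at least 2-fold lower in any pair, where 1.18% of genes were so on the arrays labelled FcRg KO, 0.447% on those labelled FceRIa KO and 1.52% in WT. Of the genes compared in all 3 pairs, 372 (2.31%) were at least 2-fold higher in WT. Of these, 6.72% also passed 2-fold under the FcRg KO label, where 1 of the 7 members did, and 22.8% under the FceRIa KO label, where 4 of the 7 members did. The median log2 ratio of HRF to PBS over the members was 0.60 on the arrays labelled FcRg KO, 0.84 on those labelled FceRIa KO and 2.05 in WT, beside medians over all genes of 0.00, -0.01 and -0.05. There is 1 array per group, so these ratios have no replicate error, and their precision is limited by how few arrays there are. In whole lung RNA, fewer cells of a type and less RNA per cell cannot be told apart.

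**Figure D1:**
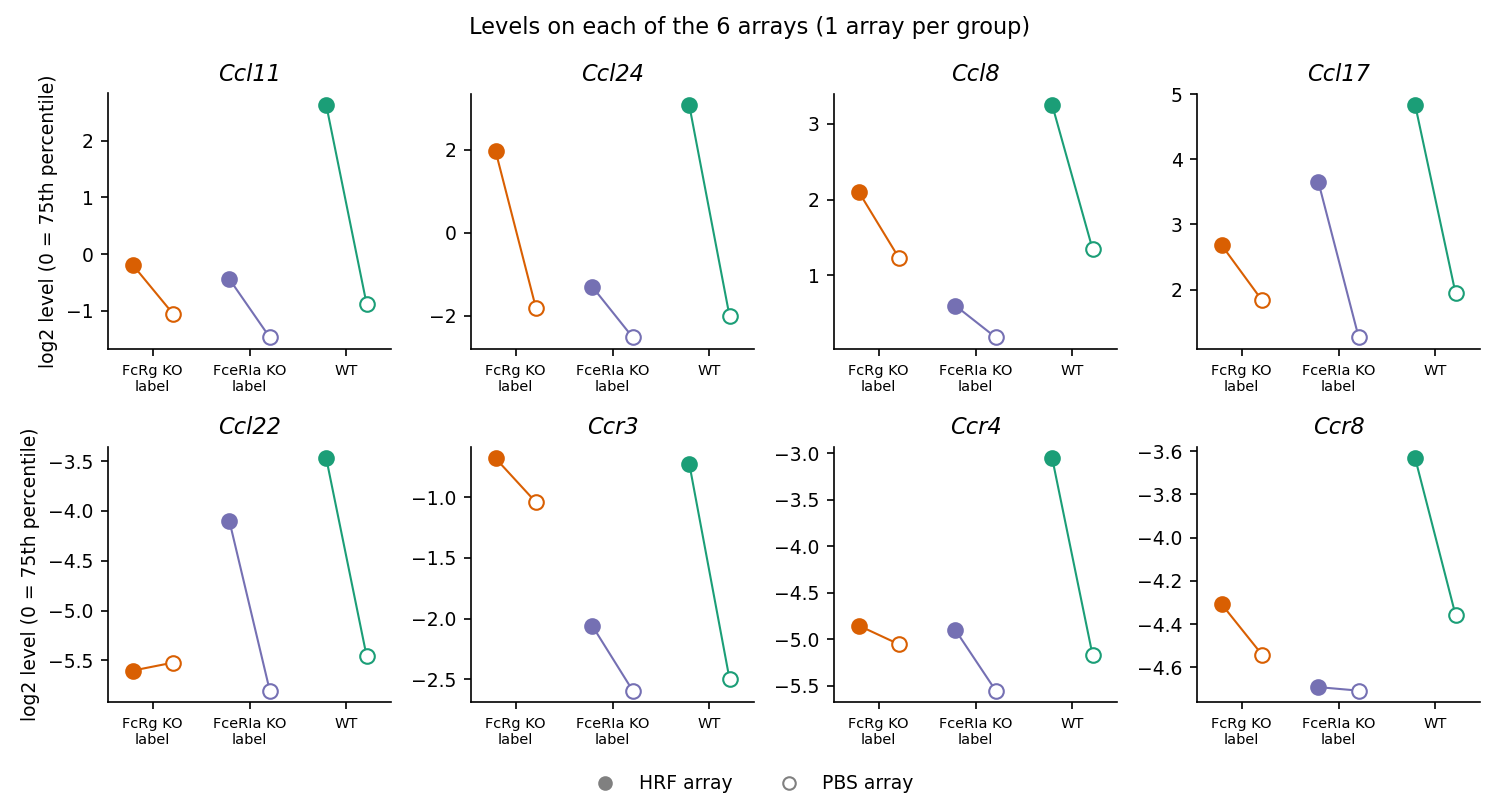
Level of each member on each of the 6 arrays, as log2 signal relative to the array's 75th percentile (vertical axis, its own scale for each gene), by genotype label, with the HRF array as a filled point left of the PBS array as an open point. Lines join the arrays of 1 label. The WT HRF array is the highest of the 6 for 7 members, and Ccr3 is the exception.

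Ccl11, the eotaxin also called eotaxin-1, on chromosome 11, stood at -0.19 on the HRF array and -1.06 on the PBS array labelled FcRg KO, at -0.45 and -1.48 on those labelled FceRIa KO, and at 2.63 and -0.88 on the WT arrays. All 3 HRF levels were above all 3 PBS levels, and the WT HRF array was far above the other 5. The HRF to PBS ratio was 1.82-fold on the arrays labelled FcRg KO, 2.04-fold on those labelled FceRIa KO and 11.5-fold in WT, where Ccl11 ranked 22 of 17432 genes. Under the FceRIa KO label this is just past 2-fold, and with normexp and quantile normalization it was not (log2 ratio 0.90). The ratios under both knockout labels differed by 0.16 on the log2 scale, and each was over 2 log2 units below the WT ratio.

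Ccl24, eotaxin-2, on chromosome 5, stood at 1.96 on the HRF array and -1.81 on the PBS array labelled FcRg KO, at -1.30 and -2.52 on those labelled FceRIa KO, and at 3.07 and -2.01 on the WT arrays. Again no HRF level lay within the PBS levels. The ratio was 13.7-fold on the arrays labelled FcRg KO, 2.32-fold on those labelled FceRIa KO and 33.9-fold in WT. It was the highest of 16593 ratios on the arrays labelled FcRg KO and ranked 4 of 17432 in WT, but 159 of 16315 on the arrays labelled FceRIa KO. Ccl24 was the member that passed 2-fold in all 3 pairs, as did 0.0373% of the 16095 genes compared in all of them.

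Ccl8, the mouse ligand of Ccr8, on chromosome 11, stood at 2.11 on the HRF array and 1.23 on the PBS array labelled FcRg KO, at 0.60 and 0.18 on those labelled FceRIa KO, and at 3.25 and 1.35 on the WT arrays. The HRF and PBS levels overlapped, because both arrays labelled FceRIa KO lay below the other 4. The ratio was 1.84-fold on the arrays labelled FcRg KO, 1.34-fold on those labelled FceRIa KO and 3.74-fold in WT.

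Ccl17, the Ccr4 ligand also called TARC, on chromosome 8, stood at 2.68 on the HRF array and 1.84 on the PBS array labelled FcRg KO, at 3.65 and 1.27 on those labelled FceRIa KO, and at 4.83 and 1.94 on the WT arrays. The 3 HRF levels were all above the 3 PBS levels. The ratio was 1.80-fold on the arrays labelled FcRg KO, 5.22-fold on those labelled FceRIa KO and 7.40-fold in WT. Its rank among all ratios was 42 of 16315 on the arrays labelled FceRIa KO and 38 of 17432 in WT, but 192 of 16593 on the arrays labelled FcRg KO.

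Ccl22, the other Ccr4 ligand, also called MDC and on chromosome 8 as well, stood at -5.60 on the HRF array and -5.52 on the PBS array labelled FcRg KO, at -4.10 and -5.80 on those labelled FceRIa KO, and at -3.47 and -5.46 on the WT arrays. Its signal was dim, with a scanner error of 10.3% to 17.5% of the signal. The ratio was 0.95-fold on the arrays labelled FcRg KO, 3.25-fold on those labelled FceRIa KO and 3.95-fold in WT. Both arrays labelled FcRg KO and the WT PBS array differed by at most about the spread of repeated spots, whose median SD was 0.134 to 0.145 log2 for probes printed in multiple copies at such levels, against 0.0563 to 0.0630 for brighter probes. Under background correction with normexp and quantile normalization the log2 ratio was -0.03 on the arrays labelled FcRg KO, 0.62 on those labelled FceRIa KO and 1.10 in WT.

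Ccr3, the eotaxin receptor, on chromosome 9, stood at -0.68 on the HRF array and -1.04 on the PBS array labelled FcRg KO, at -2.06 and -2.59 on those labelled FceRIa KO, and at -0.72 and -2.50 on the WT arrays. It was the member whose highest level was not on the WT HRF array, although the HRF array labelled FcRg KO exceeded it by 0.04, less than the spread between spots. The ratio was 1.29-fold on the arrays labelled FcRg KO, 1.45-fold on those labelled FceRIa KO and 3.43-fold in WT. On PBS arrays Ccr3 was 2.75-fold higher under the FcRg KO label than in WT.

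Ccr4, the receptor of Ccl17 and Ccl22, on chromosome 9, stood at -4.85 on the HRF array and -5.05 on the PBS array labelled FcRg KO, at -4.90 and -5.55 on those labelled FceRIa KO, and at -3.06 and -5.17 on the WT arrays. The WT HRF array stood well above the other 5. The 3 HRF levels did not overlap the PBS levels, but the signal was dim and the lowest HRF level, -4.90, was close to the highest PBS level, -5.05. The ratio was 1.15-fold on the arrays labelled FcRg KO, 1.57-fold on those labelled FceRIa KO and 4.33-fold in WT. With normexp and quantile normalization the WT log2 ratio of Ccr4 was 1.36 in place of 2.11. Under the FcRg KO label it was then -0.02 in place of 0.20, so the HRF and PBS levels overlapped.

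Ccr8, the receptor of mouse Ccl8, on chromosome 9, stood at -4.31 on the HRF array and -4.54 on the PBS array labelled FcRg KO, at -4.69 and -4.71 on those labelled FceRIa KO, and at -3.63 and -4.36 on the WT arrays. By the probe used it was the member that stayed under 2-fold in WT, with a ratio of 1.18-fold on the arrays labelled FcRg KO, 1.01-fold on those labelled FceRIa KO and 1.65-fold in WT. The pair labelled FceRIa KO differed by less than the spread between spots.

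By role, 1 of 5 ligands and 0 of 3 receptors were at least 2-fold higher on the HRF array labelled FcRg KO, with median log2 ratios of 0.87 and 0.23. On the arrays labelled FceRIa KO, 4 of 5 ligands and 0 of 3 receptors passed 2-fold, with medians of 1.21 and 0.53. In WT all 5 ligands and 2 of the 3 receptors passed it, with medians of 2.89 and 1.78. These counts and medians are descriptions of single arrays.

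**Figure D2:**
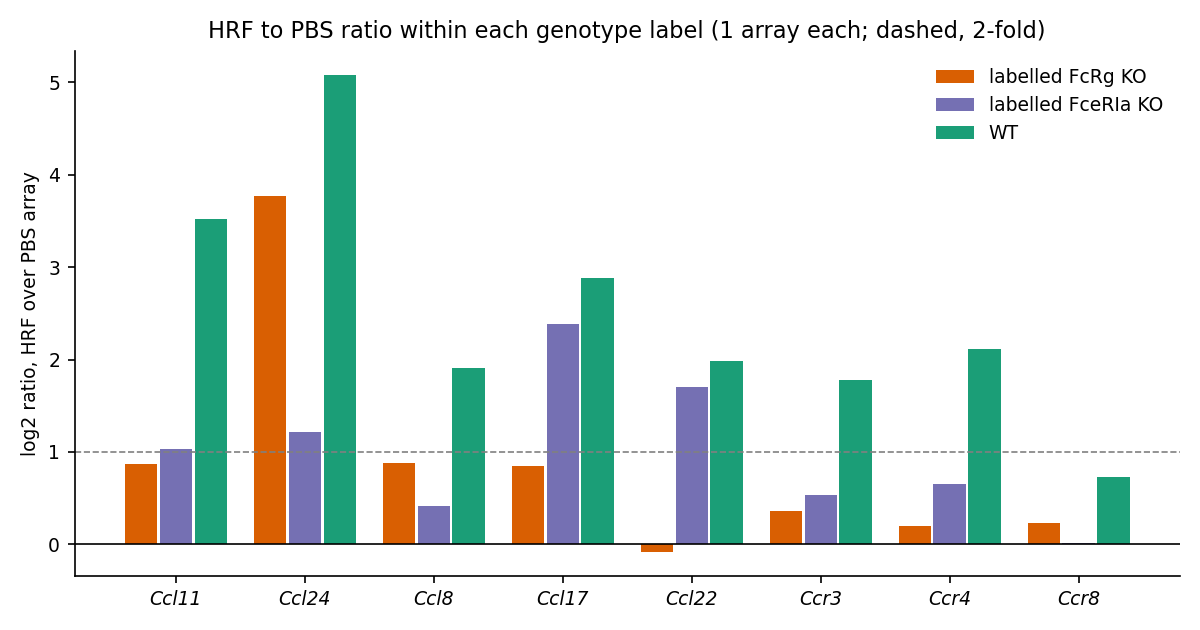
HRF over PBS as a log2 ratio (vertical axis) for each member, as bars for the arrays labelled FcRg KO, those labelled FceRIa KO and WT, with 2-fold dashed. The WT bar is the tallest for all 8 members, Ccl24 has the tallest bar under the FcRg KO label at 3.77, and Ccl17 and Ccl22 have the tallest under the FceRIa KO label at 2.38 and 1.70.

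The WT HRF array held the highest of the 6 levels for 7 members and for 19.1% of 17601 genes. Across all 6 arrays, 4 members (Ccl11, Ccl24, Ccl17 and Ccr4) had every HRF level above every PBS level, beside 5.95% of 17601 genes. For Ccr4 this did not hold with normexp and quantile normalization. A ratio over 0 in all 3 pairs was found for 7 members and for 17.4% of 16095 genes, with Ccl22 as the exception. The average HRF effect was tested with limma in a fit of genotype label and challenge, whose residual is the interaction between them and not the spread between mice. No member passed Benjamini-Hochberg adjustment at 0.05, and neither did any of the 17601 genes (0%), of which 1552 had an unadjusted p under 0.05. The largest member effect was that of Ccl24, a log2 difference of 3.36 with a standard error of 0.85 and an adjusted p of 0.557 in limma. Ccl17 followed with 2.04 (standard error 0.46) and Ccl11 with 1.80 (0.64), and the smallest was that of Ccr8 with 0.32 (0.17). Without the WT pair, the Ccl11 effect was 0.95, that of Ccl8 was 0.65 in place of 1.07, that of Ccr3 was 0.45 in place of 0.89, that of Ccr4 was 0.43 in place of 0.99 and that of Ccr8 was 0.12. Without the pair labelled FcRg KO, Ccl22 averaged 1.84 in place of 1.20.

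The WT ratio was above both labelled knockout ratios for all 8 members, as it was for 35% of the 16095 genes compared in all 3 pairs. For 5 of them (Ccl11, Ccl24, Ccl8, Ccr3 and Ccr4) it was at least 2-fold above both, beside 1.05% of those genes. For Ccl8 this did not hold with normexp and quantile normalization, where the log2 ratio was 1.77 in WT and 0.79 under the FcRg KO label. For Ccl11 the labelled knockout ratios minus the WT ratio came to -2.57 on the log2 scale (standard error 0.16) in the limma test with 1 residual degree of freedom. Its residual is only the difference between the responses under both knockout labels. No spread between mice or between WT arrays enters that standard error. The labelled knockout ratios minus the WT ratio came to -2.59 for Ccl24, with a far larger standard error of 1.41. They came to -1.69 for Ccr4 (standard error 0.28), -1.33 for Ccr3 (0.16) and -1.26 for Ccl8 (0.28). None of the 17601 genes (0%) passed that test, and 1526 had an unadjusted p under 0.05.

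The members split on which knockout label had the higher ratio. For Ccl24 the ratio on the arrays labelled FcRg KO was 5.90-fold that on the arrays labelled FceRIa KO. For Ccl22 the ratio on the arrays labelled FceRIa KO was 3.43-fold that on the arrays labelled FcRg KO, and for Ccl17 it was 2.91-fold. The other 5 members differed between the labels by less than 0.5 on the log2 scale. When the response under the FcRg KO label was set against the shared response of the other arrays, the log2 difference was -1.92 for Ccl22 (standard error 0.23, adjusted p of 0.69 in limma) and -1.79 for Ccl17 (0.31, adjusted p of 0.76 in limma). When the response under the FceRIa KO label was set against the others, that of Ccl24 was -3.21 (0.70, adjusted p of 0.9999 in limma). No gene passed either test (0% of 17601), with 1026 and 608 at an unadjusted p under 0.05. With arrays scaled on the median, Ccl24 passed that last test at -3.25 with an adjusted p of 0.0293 in limma, where 79 genes passed higher and 47 lower, while its adjusted p was 0.847 or more under the other alternatives.

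**Figure D3:**
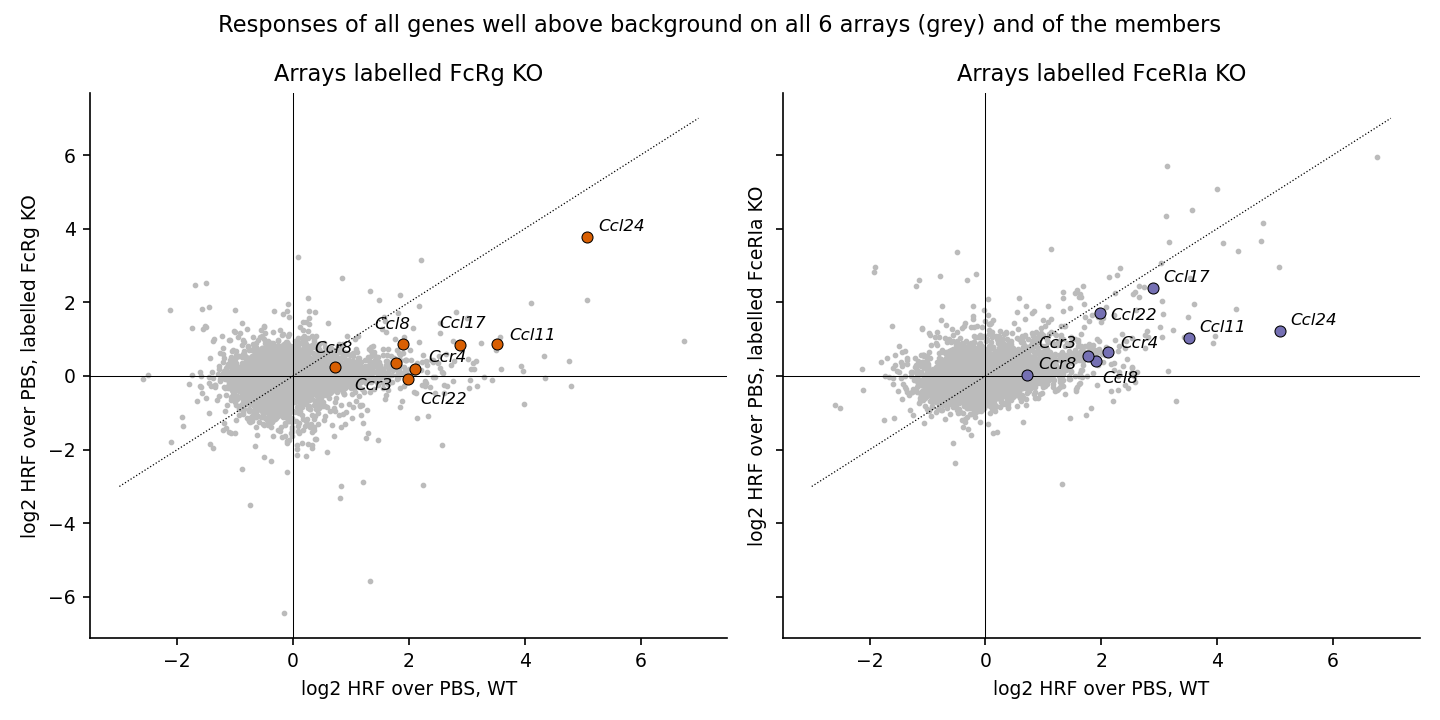
Log2 ratio of HRF to PBS in WT (horizontal axis) against that on the arrays labelled FcRg KO (left) or FceRIa KO (right), for all genes well above background on all 6 arrays in grey and the 8 members in colour, with the line of equal ratios dotted. All members lie below the dotted line in both panels. Ccl24 stands high in the left panel at 3.77 and Ccl17 and Ccl22 stand nearest to the line in the right panel.

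The same values can be read as differences from WT at one challenge, and these comparisons share the WT array. On HRF arrays, 6 of 8 members were at least 2-fold lower under the FcRg KO label than in WT, against 3.01% of 16916 genes, and 7 of 8 were so under the FceRIa KO label, against 2.29% of 16888 genes. Ccl11 was 7.08-fold lower under the FcRg KO label and 8.45-fold lower under the FceRIa KO label. Ccl24 was 2.16-fold and 20.7-fold lower, Ccl17 4.43-fold and 2.27-fold lower, and Ccl22 4.38-fold and 1.55-fold lower, in the same order. Ccr4 was 3.47-fold lower under the FcRg KO label and 3.59-fold lower under the FceRIa KO label.

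The levels of each member but Ccr3 lay closer together on PBS arrays than on HRF arrays. Ccr3 spanned 1.55 log2 units on PBS arrays and 1.38 on HRF arrays. Under the FcRg KO label 0 of 8 members were at least 2-fold lower than in WT, against 3.04% of 17373 genes, and 1 was at least 2-fold higher, Ccr3, against 0.679%. Under the FceRIa KO label 1 of 8 was at least 2-fold lower, Ccl8 at 2.25-fold, against 2.88% of 17381 genes, and 0 were at least 2-fold higher, against 0.512%. All 8 members had their lowest level of the 6 on the PBS array labelled FceRIa KO, where 15.1% of 17601 genes had theirs, and the median difference from WT was -0.44. That count was 7 with median scaling, 7 in the deposited value table and 6 with normexp and quantile normalization. In limma the difference of a label from WT over both challenges passed for no member: the lowest adjusted p was 0.27, for Ccl8 under the FceRIa KO label (a log2 difference of -1.91 with a standard error of 0.41). Over all genes 1 higher (0.00568%) and 25 lower (0.142%) passed for the FcRg KO label and none for the FceRIa KO label (0%, with 2262 at an unadjusted p under 0.05).

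**Figure D4:**
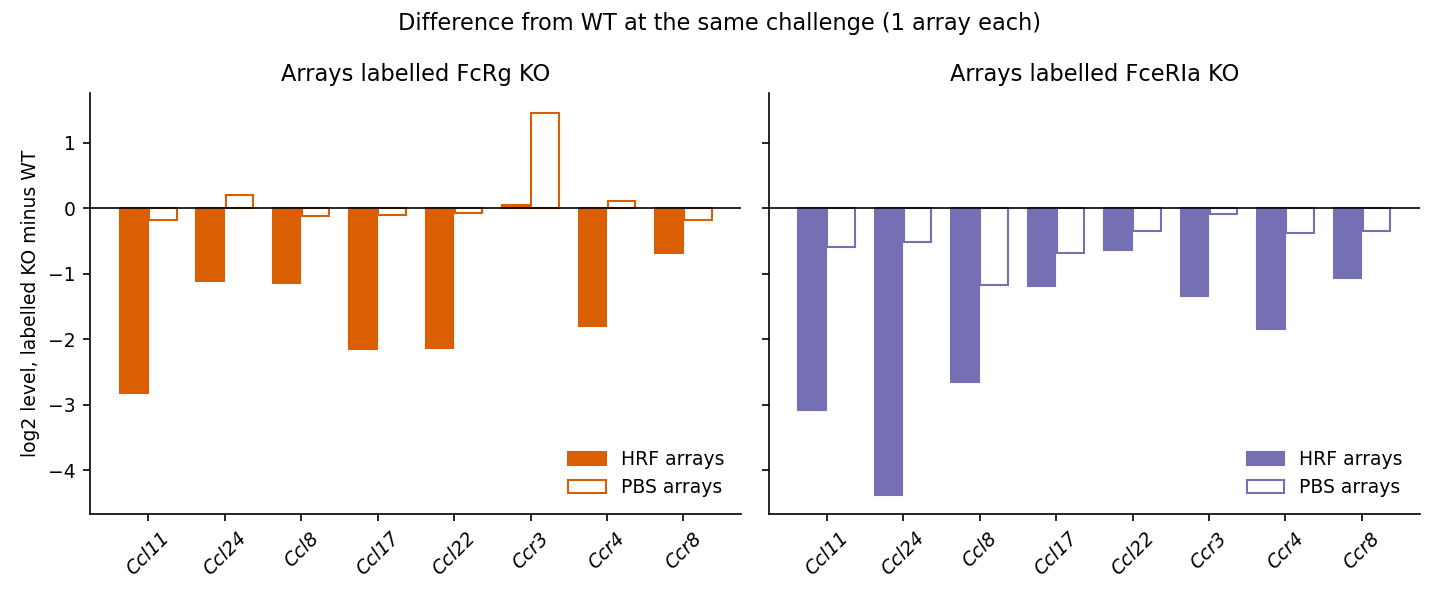
Log2 level under the FcRg KO label (left) or the FceRIa KO label (right) minus WT at the same challenge (vertical axis), for each member, with HRF arrays as filled bars and PBS arrays as open bars. On HRF arrays every bar but that of Ccr3 under the FcRg KO label lies below 0. On PBS arrays Ccr3 under the FcRg KO label stands alone at 1.46.

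The other CC chemokines differed in their order between labels. Of 14 compared, 0 were at least 2-fold higher on the HRF array labelled FcRg KO, 8 on that labelled FceRIa KO and 8 in WT, with median log2 ratios of 0.26, 1.11 and 1.64. Ccl7, a monocyte attractant, had log2 ratios of 0.41 on the arrays labelled FcRg KO, 3.66 on those labelled FceRIa KO and 4.77 in WT. Ccl2, another monocyte attractant, had -0.06, 3.39 and 4.35 in the same order, and Ccl12 had 0.60, 2.15 and 2.65. Ccl28 was 2.35-fold lower on the HRF array labelled FcRg KO, the one of the list to fall at least 2-fold in any pair. Ccl1, the other mouse ligand of Ccr8, had 0.96, at least 1.84 and 2.51. The ratio under the FceRIa KO label was above that under the FcRg KO label for 12 of these 14, as it was for Ccl11, Ccl17 and Ccl22 and was not for Ccl24 and Ccl8.

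Among 11 other CC receptors, scavengers and the chemokine-trimming protease Dpp4, 0 were at least 2-fold higher on the HRF array labelled FcRg KO, 1 on that labelled FceRIa KO and 5 in WT. Ackr1, the scavenging receptor of venules and red cells, had log2 ratios of 0.13 on the arrays labelled FcRg KO, 1.09 on those labelled FceRIa KO and 3.97 in WT. Ccr1 had 0.14, 0.45 and 1.82, and Ccr2 had 0.42, 0.17 and 1.30, in the same order. Ccr10 was 2.47-fold lower on the HRF array labelled FcRg KO. No gene of the 2 lists passed limma for the average HRF effect.

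**Figure D5:**
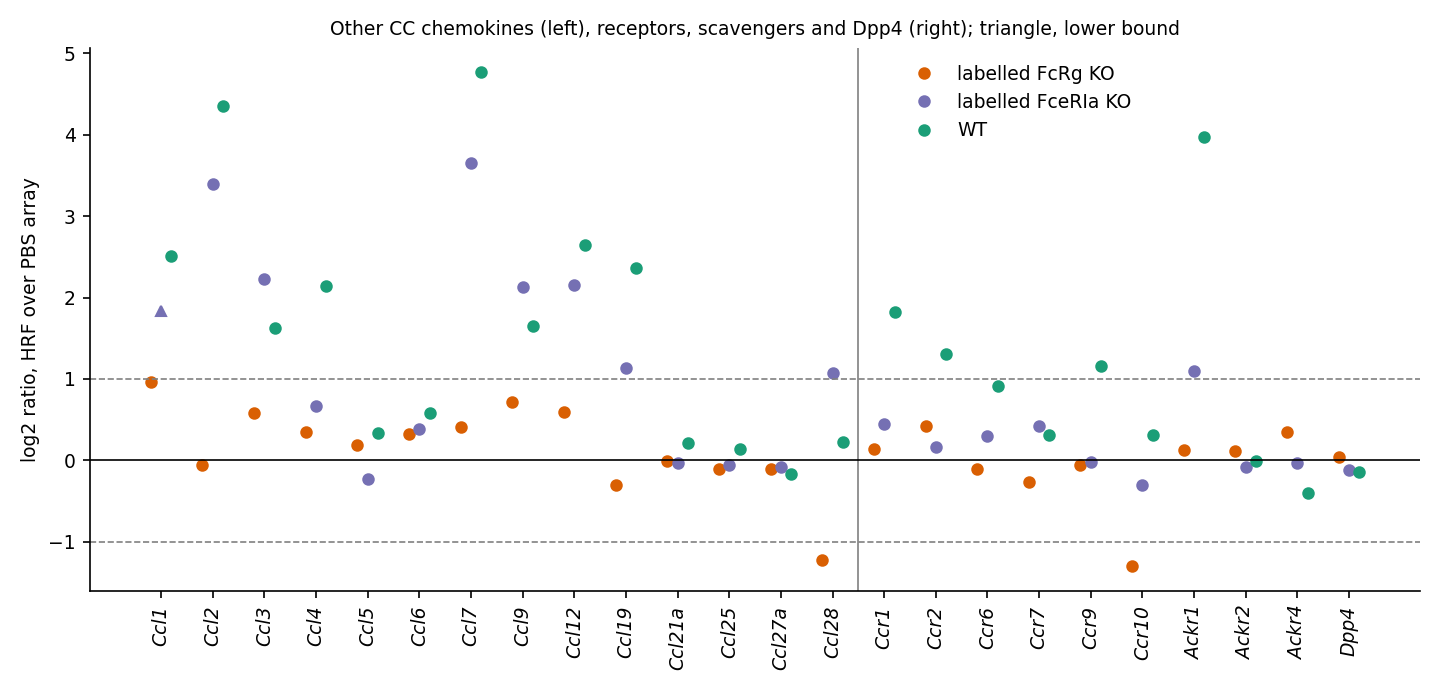
HRF over PBS as a log2 ratio (vertical axis) for the other CC chemokines (left) and 10 of the 11 other receptors, scavengers and Dpp4 (right), for the arrays labelled FcRg KO, those labelled FceRIa KO and WT, with 2-fold dashed and a triangle for a lower bound. Ccl7 and Ccl2 stand above 3 under the FceRIa KO label and in WT but below 1 under the FcRg KO label, and Ackr1 reaches 3.97 in WT.

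On chromosome 11 the RefSeq table of GRCm38.p6 places Ccl2, Ccl7, Ccl11, Ccl12, Ccl8 and Ccl1 next to each other, and all 6 were at least 2-fold higher on the WT HRF array. On the arrays labelled FceRIa KO the run was not even: Ccl2, Ccl7 and Ccl12 were over 4-fold higher, while Ccl11 between them was 2.04-fold and Ccl8 beside them 1.34-fold higher. On chromosome 8, Ccl22 and Ccl17 flank Cx3cl1, a chemokine of another class, whose log2 ratios were 0.05 on the arrays labelled FcRg KO, 0.14 on those labelled FceRIa KO and -0.21 in WT. On chromosome 9, Ccr3 lies beside Ccr1, Ccr1l1 and Ccr2, and all 4 were at least 2-fold higher in WT and under 2-fold in both labelled knockouts. On chromosome 5, Ccl24 lies beside Rhbdd2, whose log2 ratios were -0.21, -0.02 and -0.36 in the same order of labels.

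The cytokines that act upstream of several of these ligands were read beside them. Il13 was well above background on none of the 3 PBS arrays. After HRF it was at least 4.88-fold higher under the FcRg KO label, at least 1.23-fold under the FceRIa KO label and at least 53.1-fold in WT. Il4 had log2 ratios of 0.92, 0.32 and 2.17, and its receptor chain Il4ra had -0.04, 0.04 and 1.31, in the same order. Stat6 itself had ratios of 0.09, 0.16 and -0.00. Of 9 genes of this pathway, 1 was at least 2-fold higher on the arrays labelled FcRg KO, 0 on those labelled FceRIa KO and 3 in WT.

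Of 14 known targets of IL-4 and IL-13, the WT ratio was above both others for 9, and the ratio under the FceRIa KO label was above that under the FcRg KO label for 4. At least 2-fold higher were 6 of 14 on the arrays labelled FcRg KO, 1 of 13 on those labelled FceRIa KO and 9 of 14 in WT, with median log2 ratios of 0.71, 0.18 and 1.38. Arg1, the arginase of alternatively activated macrophages, had 3.14, -0.67 and 2.20 in the same order. Clca1, a goblet cell product, had 1.89, -0.41 and 2.17, and Itln1, a lectin of goblet cells, had 1.74, 1.05 and 2.80. Among alarmins and their receptors, 0 of 6 were at least 2-fold higher on the arrays labelled FcRg KO, 0 of 5 on those labelled FceRIa KO and 1 of 6 in WT. The median log2 ratios of that list were 0.23, -0.02 and 0.43. The gene that passed was Il33, the epithelial alarmin, with 0.18, 0.53 and 1.54. In limma 0 genes of these lists passed for the average HRF effect.

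Markers of the cells that carry the receptors were given the same reading. Over 8 eosinophil markers the mean level was -0.08 on the HRF array and -0.95 on the PBS array labelled FcRg KO, then -0.12 and 0.05 on those labelled FceRIa KO, and -0.23 and -0.44 on the WT arrays. The granule genes Epx, Prg2 and Prg3 were at least 2-fold higher on the HRF array under the FcRg KO label, with log2 ratios of 1.42, 1.57 and 1.59. No eosinophil marker passed 2-fold in the other pairs. Under the FceRIa KO label Ear1, Ear2 and Siglecf had log2 ratios of -0.79, -0.75 and -0.62, while Epx, Prg2, Prg3, Il5ra and Ear6 had 0.08 to 0.27. Siglecf is also in the list of alveolar macrophage markers. The higher Ccr3 level on the PBS array labelled FcRg KO stood beside the lowest mean of eosinophil markers of the 6 arrays. Their part in the Ccr3 values was not tested.

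Of the Th2, innate lymphoid (ILC2) and regulatory T cell markers, 1 of 12 was at least 2-fold higher on the arrays labelled FcRg KO, 0 of 13 on those labelled FceRIa KO and 5 of 12 in WT. Il5, the eosinophil growth factor, had log2 ratios of 0.26, 0.90 and 3.93 in this order, Il2ra had -0.02, 0.47 and 2.45, and Foxp3, the factor that defines regulatory T cells, had 0.22, 0.81 and 1.65. Il9 was at least 2.84-fold lower on the HRF array labelled FceRIa KO, but it was well above background on 1 array only, the PBS array of that label, at -4.73. The list's mean level was -1.99 on the HRF array and -2.29 on the PBS array labelled FcRg KO, then -2.36 and -2.50 on those labelled FceRIa KO, and -1.14 and -2.35 on the WT arrays. The T cell genes Cd3e and Cd4 had WT ratios of 0.30 and 0.01. Their part in the Ccr4 and Ccr8 values was not tested.

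Dendritic cell markers, measured because these cells make Ccl17 and Ccl22, had the highest ratio in WT for all 9 genes, with 0 at least 2-fold higher on the arrays labelled FcRg KO, 1 on those labelled FceRIa KO and 4 in WT. Batf3 had log2 ratios of 0.38 on the arrays labelled FcRg KO, 0.77 on those labelled FceRIa KO and 2.41 in WT, and Cd83, a marker of mature dendritic cells, had 0.06, 1.17 and 1.19. Their mean level was 0.97 on the HRF array and 0.71 on the PBS array labelled FcRg KO, then 1.06 and 0.66 on those labelled FceRIa KO, and 1.76 and 0.64 on the WT arrays. Monocyte, fibroblast, smooth muscle and lung epithelial markers had no gene at least 2-fold higher in any pair. Under the FcRg KO label 1 monocyte and interstitial macrophage marker, the scavenger receptor Cd163, was at least 14.3-fold lower on the HRF array. Its PBS array there, at -2.68, stood above the others: Cd163 was at -5.81 and -6.12 on the HRF and PBS arrays labelled FceRIa KO and at -5.34 and -5.25 on the WT arrays. Under the FcRg KO label 1 lung epithelial marker, the basal cell keratin Krt5, was 4.58-fold lower. The alveolar macrophage markers had 1 gene at least 2-fold higher, Marco, in the pair labelled FceRIa KO and in WT. The median log2 ratio of that list was 0.08 on the arrays labelled FcRg KO, -0.30 on those labelled FceRIa KO and 0.19 in WT. Marco thus went against its list under the FceRIa KO label. Of 7 basophil and mast cell markers compared 1 passed, the basophil protease Mcpt8, with 2.12 under the FcRg KO label. It was at -4.03 and -6.15 on the HRF and PBS arrays there, against -3.64 and -3.70 under the FceRIa KO label and -3.93 and -4.18 in WT. The median log2 ratios of that list were 0.11, 0.04 and -0.09 in the same order of labels. None of the 6 arrays measured Ms4a2 well above background. The part of these cells in the ligand values was not tested.

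Markers of fat, heart muscle and lymphoid tissue also differed between arrays. Fat markers were at least 2-fold lower on the HRF array for 4 of 6 genes under the FcRg KO label and at least 2-fold higher for 6 of 6 under the FceRIa KO label, with median log2 ratios of -1.39, 1.26 and, in WT, -0.02. Heart muscle markers had medians of -0.91, -0.19 and -0.52 in the same order. Lymphoid tissue markers had medians of -0.27, 0.36 and 0.17, with Cxcl13, which draws B cells, at -0.32, 2.03 and 3.04. The part of these tissues in the member values was not tested.

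Genes were also searched for profiles like those of the members, as the root mean square (RMS) difference in log2 level over the 6 arrays after centring each gene, among 15677 genes well above background on all of them. Ccl11 was nearest to Timp1, a metalloproteinase inhibitor, at 0.174, and Il5 came next at 0.302. Ccl17 was nearest to Has1, a hyaluronan synthase, at 0.248, then to the chemokine Ccl12 at 0.283. Ccl22 was nearest to Cd14, a lipopolysaccharide co-receptor, at 0.123. Ccr4 was nearest to Calhm6 at 0.112, with the dendritic cell factor Batf3 also near at 0.137.

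Ccr3 was nearest to Alox15, a lipoxygenase, at 0.331 and to Retnla at 0.357, both known targets of IL-4 and IL-13. Ccl8 was nearest to Scin at 0.179, and Ccr8, whose 6 levels spanned little more than 1 log2 unit, to Gm4907 at 0.0416. Ccl24 had no close match: the nearest of all was Cd209e, a C-type lectin, at 0.782. Among the members themselves, Ccl17 and Ccl22 were the nearest pair at 0.468, and Ccl24 was over 1 log2 unit from every other member. These distances are descriptions over 6 arrays that share a slide, and a small distance is easier to reach for a gene that varies little.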

How the data were processed

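Per the file headers, arrays of a design annotated on mm9 were read with Feature Extraction 10.7.3.1. The deposited intensity used here, the processed signal, was background-subtracted and detrended within each array, with no scaling between arrays, per the file headers. Flags of 0 or 1 for well above background, saturation and outliers were set by the scanner software, per the file headers. The deposited value table holds log2 values whose centring and exact scaling are not stated. Its ratios of HRF to PBS correlated with those used here across probes with r of 0.997 to 0.998 and slopes near 1, which settles direction and scale. Its column medians were 0.10 for the WT PBS array and 0 for the others.

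From these files, levels were computed as log2 of the processed signal over the 75th percentile of all spots of that array other than controls. Outlier spots were left out and spots of a probe averaged. The array holds 55681 probes. RefSeq accessions stood beside 32335 of them, and the RefSeq table of GRCm38.p6 gave names to 26056, or 19752 genes. For the 5270 genes with several probes the brightest was used. A pair of arrays was compared for genes well above background on either. Where the dimmer array was not, the ratio is a lower bound, set by the lowest signal well above background there or the probe's own if higher. Ratios of at least 2-fold were counted.

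All 6 arrays were fitted with genotype label and challenge as terms in limma 3.58.1 under R 4.3.3 (lmFit, eBayes, 2 residual degrees of freedom, Benjamini-Hochberg 0.05 over 17601 genes), and with a response term for 1 label (1 residual degree of freedom). With 1 array per group, limma's residual in the fit without a response term is the genotype by challenge interaction. With a response term it is only the difference between the responses of the other labels. The fit was tested on simulated data with known changes. Motifs were searched with Python 3.11.15, pandas 2.3.3 and numpy 2.4.6, and figures drawn with matplotlib 3.10.9.

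The members, the gene lists and the tests were chosen with earlier results of these data known. Named genes are the members, Fcer1g and Fcer1a, up to 4 genes per list by the size of the average HRF effect, and the 3 genes most like each member in profile. The chromosomal neighbours, Ccl28, Ccr10, Il9, Stat6, Cd3e, Cd4 and Ms4a2 were picked after their values were seen, and 2 genes that the rule names are not reported here. Alternatives were normexp background correction on the raw spot and background medians followed by quantile normalization (offset 50), use of the deposited value table, median scaling, no filter, a stricter filter, the mean of all probes, an intensity trend and leaving out each pair of arrays.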

Additional observations from a re-analysis of the deposited data

Results flagged for a closer look

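Ccl22 had an HRF to PBS log2 ratio of -0.0802 on the arrays labelled FcRg KO, against 1.70 on those labelled FceRIa KO and 1.98 in WT, so the sign under the FcRg KO label was opposite to the other pairs. This difference in sign was not tested, and -0.08 is smaller than the spread between repeated spots at that level.

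Of the fat markers, Ucp1 had a log2 ratio of -6.44 under the FcRg KO label and 2.77 under the FceRIa KO label, beside -0.16 in WT. Cidea had -3.30 under the FcRg KO label, 1.11 under the FceRIa KO label and 0.81 in WT. These opposite directions were not tested.

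The second Ccr8 probe, whose values enter only the mean of all probes, was well above background on the WT HRF array, at -5.98, and not on the other 5 arrays. On the WT PBS array it was at -7.02.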

How the results depend on the processing

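Each alternative changed 1 choice except normexp, which changed the input signal, the background correction and the normalization between arrays together. No member ratio past 2-fold changed sign, while under the FcRg KO label Ccr4 was at -0.02 with normexp in place of 0.20 and Ccr8 at -0.31 with the mean of its probes in place of 0.23. Of 144 alternative values of the member log2 ratios, 140 moved by under 0.5 on the log2 scale. The exceptions were the normexp ratios of Ccl22 (0.62 under the FceRIa KO label and 1.10 in WT) and Ccr4 (1.36 in WT), and that value of Ccr8. Of 352 alternative limma effects of the members 351 kept their side of the threshold, and Ccl24 passed under median scaling. Members at least 2-fold higher under the FceRIa KO label were 2 with normexp in place of 4, and members past the threshold for the response under that label against the others were 1 under median scaling in place of 0. Median scaling moved the median of all genes in WT to 0.17 from -0.05, relative to which a WT ratio there is read.

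Counts over all genes moved more. At least 2-fold higher under the FcRg KO label (127) were 27 with normexp, 226 in the value table, 483 with no filter and 198 with the mean of probes, and lower (195) were 79 with normexp, 299 in the value table, 294 with median scaling and 508 with no filter. Under the FceRIa KO label, higher (242) were 119 with normexp and 587 with no filter, and lower (73) were 17, 155, 139 and 306 with normexp, the value table, median scaling and no filter, 34 with the stricter filter and 148 with the mean of probes. In WT, higher (404) were 646 with median scaling, and lower (265) were 35, 538, 921 and 494 with normexp, the value table, no filter and the mean of probes. The share of 2-fold calls that were higher was 39.4% under the FcRg KO label (25.5% with normexp), 76.8% under the FceRIa KO label (87.5% with normexp) and 60.4% in WT (89.8% with normexp and 47.6% in the value table). For the FcRg KO label minus WT in limma, higher (1) were 5 with normexp, 7 with the trend, and 0 in the value table, with no filter, with the mean of probes and without the pair labelled FceRIa KO. Lower (25) were 38 with normexp, 11 in the value table, 16 with no filter, 40 with the trend and 0 without the pair labelled FceRIa KO. For the FceRIa KO label minus WT (0 and 0, with 2262 genes at an unadjusted p under 0.05), higher were 3 with median scaling, 2 with normexp and 1 with the trend, and lower 22 with median scaling. For the response under the FcRg KO label against the others (0 and 0, with 1026 at an unadjusted p under 0.05), normexp gave 1 higher and 7 lower, and for that under the FceRIa KO label (0 and 0, with 608), median scaling gave 79 and 47. The cause of these moves was not tested.

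Signal limits Ccl22, Ccr4 and Ccr8, whose probes lay near background. The fit sets each HRF array against the PBS array of its label, and the labels carry no replicate numbers to pair by.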
